A study of Mus musculus with 4 samples.

Results

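Endothelial marker genes were followed in mouse embryonic fibroblasts (MEFs) with and without Pf1, the PHD finger protein encoded by Phf12, in a study of how Pf1 maintains the nucleolus. The genes were Emcn, Tek, Tie1, Ecscr, Egfl7, Pecam1, Cdh5, Kdr, Flt1 and Esam, and their members on the array were the probe sets whose platform annotation named 1 of these symbols. All 10 genes were found, with 17 of the 45101 probe sets: Egfl7 and Flt1 had 4 each, Cdh5 had 2 and the other 7 genes had 1. Of the fibroblast lines, 2 were Pf1 -/- (lines 2 and 4) and 2 were Pf+/+ (lines 5 and 6), each hybridised to 1 array. All lines came from minced embryo torsos at 13.5 or 14.5 days of gestation, after removal of the head and the red organs, and were kept at 6% oxygen and harvested at passage 2 to 3. The labels give no strain, no sex and no passage or embryonic day for a single line, and do not state whether each line had its own embryo, so the p-values reflect only how these lines vary, which may be technical.

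The inner lining of blood and lymph vessels is made of endothelial cells. Their growth is driven by vascular endothelial growth factors (Vegf), which act on the receptor tyrosine kinases Kdr and Flt1. Their quiescence is promoted by the angiopoietin Angpt1, which acts on Tek (Tie2) together with its relative Tie1. Endothelial cells hold together through Cdh5 (VE-cadherin), Pecam1 (CD31) and Esam, carry the sialomucin Emcn (endomucin) and the adhesion-related protein Ecscr on their surface, and secrete Egfl7. An embryo torso contains many vessels, so a culture grown from it can start with endothelial cells among the fibroblasts. In RNA from a whole culture, fewer cells of a type and less RNA per cell cannot be told apart.

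The values were log2 signals that had been centred on each probe set's median over the 4 arrays. They therefore show how a gene differed between lines, not how strongly it was expressed, and whether endothelial or fibroblast genes were detected at all could not be read from them. Because the median of 4 values lies midway between the inner pair, these 2 values mirror each other around 0. Differences are knockout minus wild type on the log2 scale, with the standard error (SE) of a limma fit over all 18193 genes or all 45037 probe sets other than controls, n = 2 lines per genotype. A gene was called at a Benjamini-Hochberg adjusted p under 0.05. As a check of the labels, Phf12 probe set 1434922_at was lower in both knockout lines (-0.37 and -0.41, against 0.56 and 0.37 in lines 5 and 6 of the wild type). The other Phf12 probe set, 1453579_at, differed by 0.012 ± 0.0976 SE. The labels do not say which exons were deleted, so neither probe set can be placed inside or outside the deletion.

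Promoter sequence of members that moved in opposite directions is shown first. RefSeq promoter windows (250 bases before to 50 after an annotated start, build GRCm38.p6) matched 6 of the 10 genes, in 8 windows: Emcn, Tek, Tie1, Kdr and Flt1 with 1 each and Egfl7 with 3. They were searched on both strands for the FOX:ETS core AACAGGAA, the ETS sites CCGGAAGT and ACAGGAAG (the latter overlaps the FOX:ETS core by 7 letters), the GATA site AGATAA, the SP1 box GGGCGG, the E box CAGCTG and the TATA box TATAAA. The FOX:ETS core, a composite element known from endothelial enhancers, was found in the window of Emcn, which rose in the knockout, and in the first window of Egfl7, which fell. The 250 bases before each of these starts are printed 5′ to 3′, with the matches in capitals. The Emcn start used in that table lies slightly downstream of the first base of the gene's annotated span, so the last printed bases of Emcn fall within the span.
Emcn, chr3:137340828-137341077, plus strand: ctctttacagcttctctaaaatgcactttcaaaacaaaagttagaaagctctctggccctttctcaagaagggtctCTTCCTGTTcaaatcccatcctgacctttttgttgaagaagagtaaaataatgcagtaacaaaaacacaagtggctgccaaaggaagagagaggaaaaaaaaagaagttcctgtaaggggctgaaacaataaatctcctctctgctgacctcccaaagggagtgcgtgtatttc
Egfl7, chr2:26580833-26581082, plus strand: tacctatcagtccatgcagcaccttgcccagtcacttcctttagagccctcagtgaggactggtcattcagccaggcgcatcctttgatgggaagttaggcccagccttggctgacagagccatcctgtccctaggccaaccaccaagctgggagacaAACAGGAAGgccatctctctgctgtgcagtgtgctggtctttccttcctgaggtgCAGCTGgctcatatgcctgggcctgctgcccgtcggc

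In Emcn the capitals are the FOX:ETS core and the overlapping ETS site ACAGGAAG, read on the minus strand, beginning 174 bases before the start. In Egfl7 the same pair of motifs lay on the plus strand, beginning 92 bases before the start, and the second run of capitals is the E box, 37 bases before it. The FOX:ETS core was present in 2 of the 8 windows and in 2.65% of all 32851 windows of the table. ACAGGAAG was present in 3 of the 8, the third being the second Egfl7 window, against 3.58% of all windows. The site CCGGAAGT was in 0 of the 8 (3.89% of all), the GATA site in that of Tek alone (11.2% of all), the E box in the first of Egfl7 alone (16.3%) and the TATA box in that of Flt1 alone (13.6%). The SP1 box was in 3 windows, those of Kdr and Flt1 and the third of Egfl7, against 35.7% of all. These are letter matches and a description of 8 windows. The FOX:ETS core stood before a gene that rose and before one whose mean over its probe sets fell. The 4 probe sets of that second gene, Egfl7, did not agree. Probe sets could not be placed on transcripts, so the fall cannot be assigned to the first Egfl7 start.

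The endothelial genes did not move as a block. Of the 10, Emcn rose, Tek, Ecscr and Egfl7 fell, and Tie1, Pecam1, Cdh5, Kdr, Flt1 and Esam did not pass the test. Over all 18193 genes 12.2% were called, 5.21% higher and 6.95% lower. The median difference of the 10 genes was -0.092, against -0.0027 over all genes, and the median size of the difference was 0.47 against 0.15. The genes were chosen with earlier results of these data known, so such comparisons with all genes are descriptions. In 6 of the 10 genes the lines of the 2 genotypes did not overlap, close to the 58.2% of all genes for which this held, so the lack of overlap is not a result about endothelial genes. The calls needed all 4 arrays: limma called 0 of the 10 genes when line 2 was dropped, 1 (Emcn) when line 4 was, 0 when line 5 was and 0 when line 6 was. In the full fit, 6 of the 10 genes had an unadjusted limma p under 0.05, as had 5368 of all 18193 genes. The fits without a line each left 1 line in 1 genotype. Over all genes, the same fits with 1 residual degree of freedom called 0, 321, 1 and 0.

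**Figure D1:**
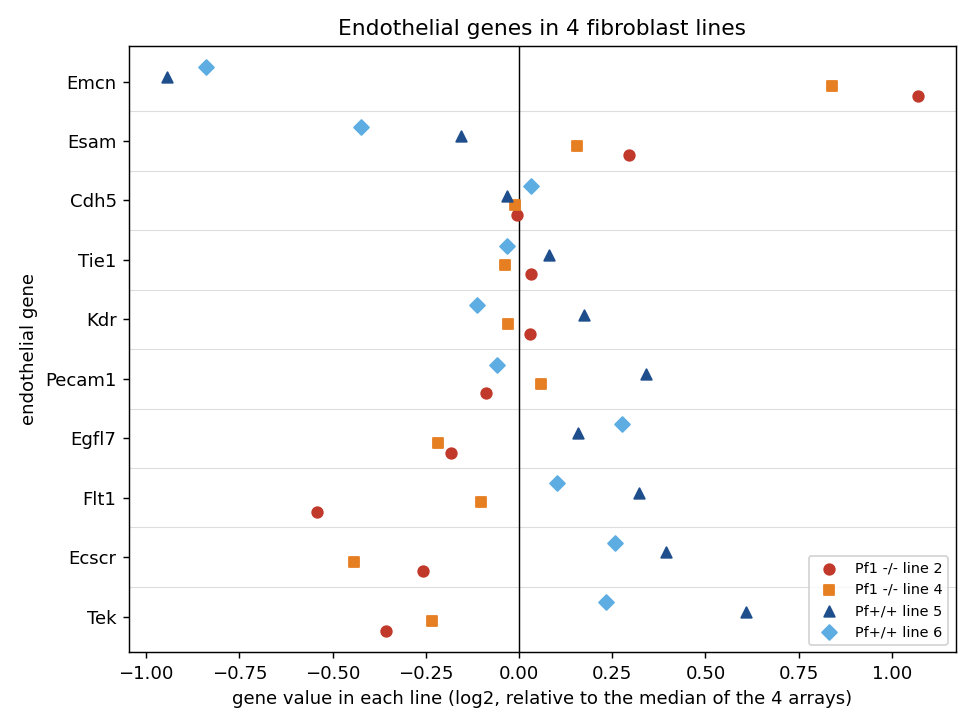
Gene values of the 10 endothelial genes in each line (log2, relative to the median of the 4 arrays; 1 point per line, genes ordered by the difference knockout minus wild type). Emcn has both knockout lines at 0.84 or above and both wild-type lines at -0.84 or below, whereas Cdh5 has all lines within 0.032 of 0.

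Of the 4 receptors, Tek fell and Tie1, Kdr and Flt1 did not pass. Tek, the angiopoietin receptor, stood at -0.36 (line 2) and -0.23 (line 4) in the knockout and at 0.61 (line 5) and 0.23 (line 6) in the wild type. The genotypes did not overlap, and wild-type line 5 was the highest. Tek fell 1.64-fold (-0.72 ± 0.147 SE, limma adjusted p = 0.0426). Its difference lay between -0.90 and -0.53 with any 1 line left out (limma adjusted p from 0.0527 to 0.206), and in the fit over probe sets the same probe set, 1418788_at, missed the threshold (limma adjusted p = 0.0525). Tie1, the related receptor without a well-defined ligand of its own, stood at 0.033 and -0.039 in the knockout lines and at 0.081 and -0.033 in the wild-type lines. The genotypes overlapped, and its difference of -0.027 had a 95% confidence interval from -0.26 to 0.20, which does not reach the difference measured for Tek.

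Flt1, the Vegf receptor that also acts as a decoy for Vegfa, stood at -0.54 (line 2) and -0.10 (line 4) in the knockout and at 0.32 (line 5) and 0.10 (line 6) in the wild type. Knockout line 2 was the lowest, 0.44 below knockout line 4, and the genotypes did not overlap. The difference of the gene mean was -0.53 ± 0.173 SE, which did not pass (limma adjusted p = 0.116). The 4 Flt1 probe sets agreed in the order of the lines, with line 2 lowest, then 4, 6 and 5, but not in size. Probe set 1419300_at fell 1.81-fold (-0.63 and -0.26 against 0.56 and 0.26; -0.86 ± 0.174 SE, limma adjusted p = 0.0481 in the fit over probe sets). The others differed by -0.49 (1451756_at), -0.44 (1454037_a_at) and -0.35 (1440926_at), with limma adjusted p of 0.186, 0.223 and 0.274. In these, knockout line 4 lay between -0.070 and -0.022, close to wild-type line 6 at 0.022 to 0.070.

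Kdr, the main signalling receptor for Vegfa, stood at 0.030 and -0.030 in the knockout lines and at 0.17 and -0.11 in the wild-type lines. Both knockout lines lay between the wild-type lines, which were 0.29 apart. The difference was -0.030 ± 0.121 SE (limma adjusted p = 0.912), with a 95% confidence interval from -0.34 to 0.28. As the signal level is not held in these values, a receptor that was not detected in any line would give the same result as one expressed equally.

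Among the surface and junction genes, Emcn had by far the largest difference of the 10. It stood at 1.07 (line 2) and 0.84 (line 4) in the knockout and at -0.94 (line 5) and -0.84 (line 6) in the wild type. The lines of a genotype lay 0.23 (knockout) and 0.11 (wild type) apart, against 1.85 between the genotype means. Emcn, whose gene spans chr3:137341062-137431069, rose 3.60-fold (1.85 ± 0.112 SE, limma adjusted p = 0.0103) and ranked 95 among all genes by the size of its difference. With any 1 line left out the difference lay between 1.73 and 1.96 (limma adjusted p from 0.0315 to 0.0887), and it kept its call only without knockout line 4. Emcn is a sialomucin of venous and capillary endothelium that limits the adhesion of leukocytes, and it rests here on 1 probe set, 1425582_a_at.

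Ecscr, a membrane protein linked to endothelial migration and to the turnover of Vegf receptors, moved the other way. It stood at -0.26 (line 2) and -0.44 (line 4) in the knockout and at 0.39 (line 5) and 0.26 (line 6) in the wild type. The genotypes did not overlap, and each pair of lines lay within 0.19 of each other. Ecscr fell 1.60-fold (-0.68 ± 0.107 SE, limma adjusted p = 0.0266), with a range of -0.77 to -0.58 when 1 line was left out (limma adjusted p from 0.0659 to 0.117). Its call was also made in the fit over probe sets (1437451_at, limma adjusted p = 0.0337).

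Esam, an immunoglobulin-family adhesion molecule of endothelial tight junctions and platelets, stood at 0.29 (line 2) and 0.16 (line 4) in the knockout and at -0.16 (line 5) and -0.42 (line 6) in the wild type. The genotypes did not overlap, but the difference of 0.52 ± 0.123 SE missed the threshold (limma adjusted p = 0.0586). When only genes with a range of at least 0.2 over the arrays were tested, the same difference was called (limma adjusted p = 0.0357). Over all alternatives its limma adjusted p lay between 0.0357 and 0.274.

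Cdh5 and Pecam1, the junction proteins most often used to identify endothelium, showed no detectable difference. The Cdh5 gene value was -0.0049 and -0.012 in the knockout lines and -0.031 and 0.031 in the wild-type lines, with a difference of -0.0083 ± 0.0809 SE (95% confidence interval from -0.22 to 0.20). That agreement between lines came from averaging 2 probe sets that disagreed. In knockout line 2, 1422047_at stood at 0.24 and 1433956_at at -0.25, whereas in knockout line 4 they stood at -0.13 and 0.11. Neither probe set was called, with differences of 0.053 ± 0.148 SE and -0.070 ± 0.144 SE.

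Pecam1 stood at -0.088 (line 2) and 0.060 (line 4) in the knockout and at 0.34 (line 5) and -0.060 (line 6) in the wild type. Wild-type line 5 was the highest, and the other lines lay together. The difference was -0.15 ± 0.156 SE (limma adjusted p = 0.592), with a 95% confidence interval from -0.55 to 0.25. Pecam1 is also carried by leukocytes and platelets. Of 10 macrophage and leukocyte markers, limma called 0 (0 at an unadjusted p under 0.05), against 12.2% of all genes. Their median was -0.34 (line 2) and 0.53 (line 4) in the knockout and 0.37 (line 5) and -1.24 (line 6) in the wild type. These markers thus differed more within each genotype than between them, and their part in the Pecam1 values was not tested.

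Egfl7, the secreted member, binds extracellular matrix and is made by endothelial cells and their progenitors. Its gene spans chr2:26581083-26592682, and the microRNA gene Mir126a (chr2:26591357-26591429) lies within that span. The gene mean was -0.18 (line 2) and -0.22 (line 4) in the knockout and 0.16 (line 5) and 0.28 (line 6) in the wild type. The genotypes did not overlap, and Egfl7 fell 1.33-fold (-0.42 ± 0.0873 SE, limma adjusted p = 0.0447), the smallest of the 4 called differences.

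The 4 Egfl7 probe sets did not agree. Probe set 1451428_x_at stood at -0.37 and -0.34 in the knockout lines and 0.39 and 0.34 in the wild-type lines and fell 1.65-fold (-0.72 ± 0.0911 SE, limma adjusted p = 0.021 over probe sets). Probe set 1435823_x_at also fell (-0.58 ± 0.118 SE, limma adjusted p = 0.0487), and 1451427_a_at had the same direction without passing (-0.48 ± 0.115 SE, limma adjusted p = 0.0691). The remaining one, 1421335_a_at, stood at 0.014 and 0.089 in the knockout and -0.12 and -0.014 in the wild type (0.12 ± 0.0979 SE, limma adjusted p = 0.542). The ending _x_at marks probe sets in which some probes may also match other sequences. Without those, the Egfl7 difference was -0.18 and was not called (limma adjusted p = 0.289; range over all alternatives 0.041 to 0.289).

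The count by probe set is likewise a description, as the genes were chosen with earlier results of these data known. Here limma called 5 of the 17, against 8.32% of all probe sets: the Emcn probe set higher, and 1 of Ecscr, 1 of Flt1 and 2 of Egfl7 lower. In the full fit, 9 of the 17 had an unadjusted limma p under 0.05, as had 11359 of all 45037 probe sets. The calls were lost when any 1 line was left out.

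**Figure D2:**
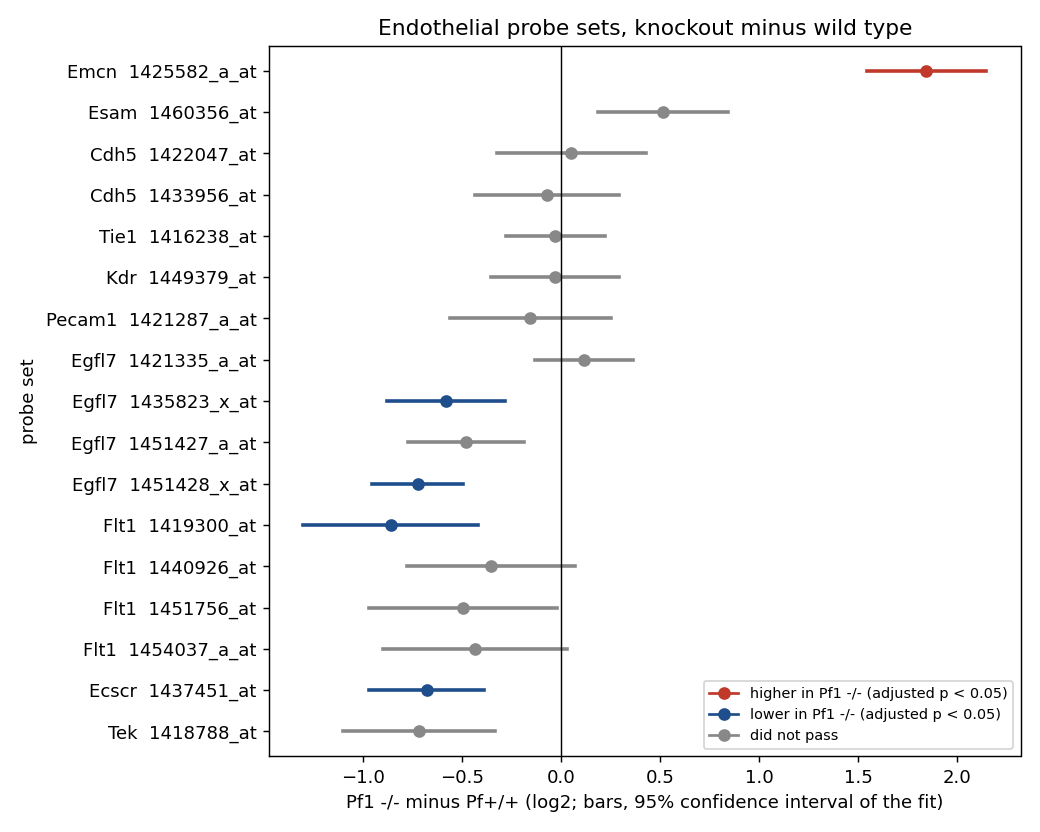
Knockout minus wild type for each of the 17 endothelial probe sets (log2; points, difference; bars, 95% confidence interval of the limma fit over all probe sets; n = 2 lines per genotype; colour, call at an adjusted p under 0.05). The Emcn interval (1.54 to 2.15) lies above all others, and the Egfl7 probe set 1421335_a_at lies on the other side of 0 from the rest of that gene.

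Ranked by their differences, the genes ran from Emcn (1.85) and Esam (0.52) through Cdh5 (-0.0083), Tie1 (-0.027), Kdr (-0.030) and Pecam1 (-0.15) to Egfl7 (-0.42), Flt1 (-0.53), Ecscr (-0.68) and Tek (-0.72). The 95% confidence interval of Emcn (1.56 to 2.13) did not meet that of its neighbour Esam (0.201 to 0.83), and that of Esam narrowly missed that of Cdh5 (-0.22 to 0.199). Among the other neighbours in this order the intervals overlapped. Against the median profile of the 10 genes (the median in each line), the non-members with the smallest root mean square difference over the 4 arrays were Phyhipl, Carmil2, Zmiz2, Gm16845 and Rims3, at 0.0136 to 0.014. That profile is nearly flat, and none of these 5 genes was called.

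The ligands and co-receptors of the same pathways, and with them the receptor Flt4, were measured as well. Of 11 genes, Nrp1 rose, Pgf, Angpt1, Nrp2 and Vegfb fell and 6 did not pass, and the median difference was -0.65. Over all 18193 genes, 12.2% were called (5.21% higher, 6.95% lower), and the median difference was -0.0027. At an unadjusted limma p under 0.05 there were 5368 of the 18193. The list was chosen with earlier results of these data known, so its share is a description. Pgf, placental growth factor, a ligand of Flt1, stood at -0.98 (line 2) and -0.43 (line 4) in the knockout and at 0.43 (line 5) and 0.54 (line 6) in the wild type, and fell 2.28-fold (-1.19 ± 0.195 SE, limma adjusted p = 0.0282). Vegfb, the other ligand that binds Flt1 and not Kdr, stood at -0.31 and -0.43 against 0.31 and 0.40 and fell 1.66-fold (-0.73 ± 0.0927 SE, limma adjusted p = 0.0186). For both ligands all knockout values lay below all wild-type values. Angpt1, the activating ligand of Tek, stood at -0.28 and -0.31 against 0.65 and 0.28 and fell 1.69-fold (-0.75 ± 0.142 SE, limma adjusted p = 0.0363).

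The neuropilins, co-receptors for Vegf and semaphorins, moved in opposite directions. Nrp1 stood at 0.69 (line 2) and 0.45 (line 4) in the knockout and at -0.58 (line 5) and -0.46 (line 6) in the wild type, and rose 2.13-fold (1.09 ± 0.115 SE, limma adjusted p = 0.0157). Nrp2 stood at -0.32 and -0.39 against 0.60 and 0.19, and fell 1.68-fold (-0.75 ± 0.152 SE, limma adjusted p = 0.0419). Vegfa (-0.63), Vegfc (-0.65) and Vegfd (-1.14) had negative differences that did not pass, with limma adjusted p of 0.0721, 0.077 and 0.116. Vegfd was spread widely in the wild type, at 1.35 in line 5 and 0.23 in line 6. Angpt4 (0.38), Angpt2 (0.16) and the lymphatic Vegf receptor Flt4 (-0.19) did not pass either. In the full fit, 9 of the 11 had an unadjusted limma p under 0.05, as had 5368 of all 18193 genes. Calls among the 11 were lost when any 1 line was left out.

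**Figure D3:**
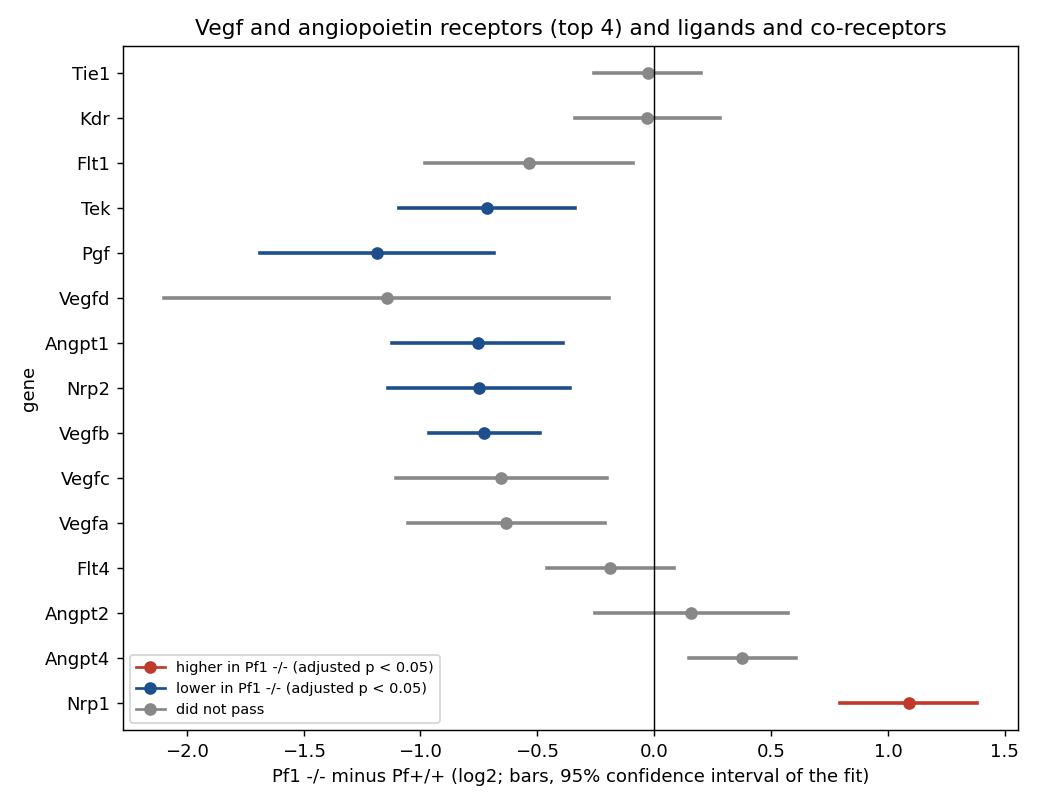
Knockout minus wild type for the receptors Tie1, Kdr, Flt1 and Tek (top) and for 11 Vegf and angiopoietin ligands and co-receptors (log2; points, difference; bars, 95% confidence interval of the limma fit over all genes; n = 2 lines per genotype; colour, call at an adjusted p under 0.05). Tek, Pgf, Angpt1, Nrp2 and Vegfb were called lower and Nrp1 higher, at 1.09. Of all genes, 12.2% were called. Flt4, plotted among the 11, is itself a receptor.

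Other genes of endothelium were called about as often as genes in general (12.2%), so their counts do not set them apart. Of 40 further endothelial genes, 1 rose, 4 fell and 35 did not pass, with a median difference of -0.035. Selp, the P-selectin that captures leukocytes, rose (1.16 ± 0.155 SE), standing at 0.87 (line 2) and 0.45 (line 4) in the knockout and at -0.52 (line 5) and -0.47 (line 6) in the wild type. The membrane protein gene Heg1 (-0.95 ± 0.105 SE), the peptide ligand Apln (-0.94 ± 0.142 SE), the nitric oxide synthase Nos3 (-0.59 ± 0.106 SE) and the phosphatase Ptprb (-0.58 ± 0.0921 SE), which acts on Tek and Cdh5, fell. Limma adjusted p of these 5 genes lay between 0.016 and 0.0335. Of 25 transcription factors active in endothelium, the flow-responsive Klf2 (-0.62) and Mef2c (-0.91) fell, Gata2 (0.67) rose and 22 did not pass. The Ets family members Ets1 (0.39), Ets2 (-0.51), Fli1 (-0.20), Erg (-0.15), Etv2 (-0.15) and Elk3 (0.16) were among those that did not pass. Of 12 arterial, venous and lymphatic genes, the arterial ligand Efnb2 rose (0.43), Pdpn, which marks lymphatic endothelium and also fibroblasts, fell (-0.75) and 10 did not pass.

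Markers of other cells that a torso could contribute were examined beside the endothelial genes. Over all genes, 12.2% were called, 5.21% higher and 6.95% lower. Of 10 fibroblast markers, Col6a2 (-1.42), Col1a1 (-0.96), Col1a2 (-0.59), Lum (-3.33), Pdgfra (-2.17) and Col3a1 (-1.06) fell and 4 did not pass. Their median difference was -0.97, at -0.72 (line 2) and -0.30 (line 4) in the knockout and 0.74 (line 5) and 0.31 (line 6) in the wild type. Tek and Flt1 had this order of the lines, with line 2 lowest and line 5 highest. Ecscr and Egfl7, which were called lower, did not. Line 4 was lowest in Ecscr (-0.44) and in Egfl7 (-0.22), and line 6 was highest in Egfl7 (0.28). How many of all genes had either order was not counted, so the order does not set these members apart. Over the whole array, values also spread more in line 2 (SD 0.244) than in line 4 (0.202). They spread more in line 5 (0.272) than in line 6 (0.235). Of 10 pericyte markers, Mcam (1.44), which endothelial and smooth muscle cells also carry, and Des (0.62) rose, Notch3 (-1.02), Anpep (-0.62), Pdgfrb (-0.52) and Higd1b (-0.40) fell, and 4 did not pass. Of 10 epithelial markers, Krt8 (2.42), Cldn4 (1.66) and Cldn3 (0.63) rose, Krt19 (-0.39) fell and 6 did not pass.

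Of 8 measured megakaryocyte and platelet markers, Ppbp (2.30) and Pf4 (1.12), neighbouring chemokine genes of platelets, rose. The integrin Itga2b (-0.44) fell and 5 did not pass, with a median of 0.025 over the 8. The share called over all genes was 12.2%. Of 7 measured erythroid markers, limma called 0 (1 at an unadjusted p under 0.05), with Epor at -0.30 and Hba-a1 at 0.22. Among the macrophage and leukocyte markers the smallest p-values were those of Coro1a (0.60 ± 0.505 SE) and Cd68 (0.68 ± 0.6 SE), with a limma adjusted p of 0.51 and 0.533. The part of any of these cell types in the endothelial differences was not tested.

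**Figure D4:**
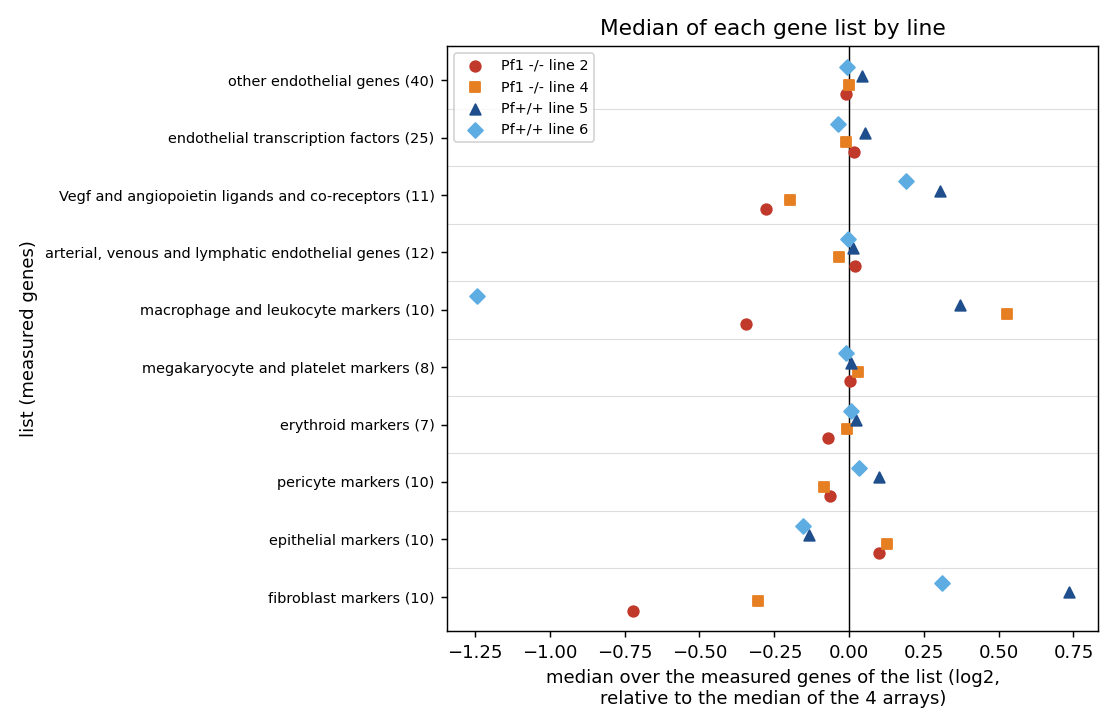
Median over the measured genes of each list in each line (log2, relative to the median of the 4 arrays; 1 point per line, number of measured genes in brackets). The medians of the Vegf, erythroid, pericyte, epithelial and fibroblast lists separate the genotypes, by small amounts in the erythroid and pericyte lists. The genotypes also did not overlap in 58.2% of all genes, so separation alone does not set a list apart. The macrophage list is lowest in wild-type line 6 (-1.24) and highest in knockout line 4 (0.53).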

How the data were processed

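RNA of 4 MEF lines was labelled with biotin and hybridised to Affymetrix arrays. The deposited log2 values were made with Affymetrix Expression Console and RMA (background correction, quantile normalisation, log2 summary), per the submitters' processing notes. The log base was taken from the method, and no version is named. Every probe set had a median of 0 over the arrays (100%, tolerance 1e-06), so the table had been centred by a step the labels do not describe. Detection calls, scan dates and batches were not used here. With 4 arrays, their number limits the precision.

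The series text names the 430A array, but the table matched the platform annotation of the larger version of it. Of 45101 probe sets, 64 controls were left out, 34945 named 1 gene, 932 several and 9160 none. Symbols were checked through Entrez identifiers against RefSeq genes of GRCm38.p6 (34741 matched, 0 changed). The mean of a gene's probe sets naming it alone was its value (18193 genes, 9010 with over 1 probe set). The genotype difference was estimated by limma 3.58.1 (lmFit, eBayes; R 4.3.3) with no covariate (2 residual and 3.04 prior degrees of freedom), over all genes and over all probe sets. Adjusted p-values are Benjamini-Hochberg over the whole table. A permutation of the 4 lines cannot give a two-sided exact p below 0.333. The fits were tested on simulated data.

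Named genes were all members, the called genes of each list (or the 2 with the smallest p) and the 5 closest to the members' median profile. Ets1, Ets2, Fli1, Erg, Etv2, Elk3 and the uncalled Vegf and angiopoietin genes were named after their values were seen. Members and lists were chosen with earlier results of these data known. Alternatives were quantile normalisation, medians set to 0, array weights, a robust prior, other handling of probe sets, a range filter and leaving out each line.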

Additional observations from a re-analysis of the deposited data

How the results depend on the processing

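With all 4 lines, the alternatives called 2063 to 2662 genes (2212 in the fit reported), 3 or 4 of the 10 endothelial genes and 5 or 6 of the 17 probe sets. The range filter left 8 of the 10 genes in the test. Leaving out 1 line left 1 residual degree of freedom and called 0 to 321 genes, 0 to 1 endothelial genes and 0 endothelial probe sets, and, in a comparison chosen after seeing the data, 0 to 2 of the 11 Vegf and angiopoietin genes. Emcn, Tek, Ecscr, Egfl7, Flt1 and Esam kept their direction in all alternatives run. Emcn, Tek and Ecscr kept their calls in the alternatives of the gene fit with all 4 lines, whereas in the fit over probe sets that of Tek missed the threshold (limma adjusted p = 0.0525). Egfl7 lost its call without _s_at and _x_at probe sets (-0.18) and, at limma adjusted p = 0.0542, under the range filter, and Esam gained one under that filter. The sign turned for 4 genes that were not called: Cdh5 without wild-type line 6 (0.023), Kdr without knockout line 4 (0.000204) or wild-type line 5 (0.11), Pecam1 without wild-type line 5 (0.046) and Tie1 without knockout line 4 (0.0082) or wild-type line 5 (0.030). With 1 line left out, their lowest differences were -0.040 (Cdh5), -0.17 (Kdr), -0.36 (Pecam1) and -0.084 (Tie1). The titles of the 4 samples share a prefix. The line number after it differs in every line and pairs no knockout line with a wild-type line, so no paired analysis was possible. The highest-signal probe set could not be chosen for a gene, since centred values hold no level.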
